A study of Mus musculus with 8 samples.

Results

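The genes described here are 69 ribosomal protein pseudogenes measured in total splenocytes of Balb/c mice that received all-trans retinoic acid (tRA), the active metabolite of vitamin A, or vehicle. They were the rows of the count table whose Ensembl identifier has a GENCODE M21 symbol made of a ribosomal protein gene name, the letters ps and a number, and whose mean raw count over the 8 mice was at least 10. Of 51826 identifiers in the table, 283 had such a symbol, of which 72 had no count in any mouse and 142 had a mean above 0 and below 10. The members were thus chosen by their mean count, which gives no weight to either group of mice. Just inside that limit were Rpl17-ps5 and Rpl36a-ps1, with mean counts of 10.5 and 10.2, and the closest ones left out were Rpl27-ps3, Rpl10-ps6 and Rpl13a-ps1, with 9.12, 8.62 and 8.38.

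The 8 mice were female Balb/c animals at 3 months of age, none of which was injected with pristane, the oil that induces lupus in the other experiments of the study. Of these, 4 were dosed daily with tRA by mouth from weaning and 4 with canola oil, the vehicle, and the comparison asks what tRA alone does to gene expression in the spleen before disease is induced. The sample labels give a dose of 1 mg/kg of tRA for all 8 mice, so the groups follow the sample titles, which name treated and control samples, and the methods of the study. Each sample is numbered separately within its group and the p-values measure the spread between these samples. The libraries held between 30919272 and 37539631 counts on genes. Markers of B cells and T cells were abundant in all 8 libraries, with summed levels from 5703 to 6861 and from 1058 to 1345 CPM (counts rescaled so that libraries of different size can be compared), in keeping with spleen.

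A processed pseudogene arises when a messenger RNA is copied into DNA and inserted elsewhere in the genome, so that it lacks the introns and usually the promoter of its parent gene. Ribosomal protein mRNAs are short and abundant in nearly all cells, and mammalian genomes carry many such copies of them, most of which are thought not to make protein. Since a recent copy differs from its parent at few bases, a short read from one can often be placed on the other. The mice were Balb/c while the reference annotation describes C57BL/6J, so a base that separates a copy from its parent in the reference may not do so in these mice.

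Of the members, 35 were named for large subunit genes (Rpl) and 34 for small subunit genes (Rps), 40 genes in all. For 21 of these genes there was 1 member, while Rpsa had 5, Rpl17 had 4 and Rps15a had 4, and copies of the same gene share sequence and are not independent. The annotation classes 63 as processed pseudogenes, 3 as transcribed processed pseudogenes and 3, Rpl9-ps6, Rpl10-ps3 and Rpl36a-ps1, as protein coding. Their transcripts had a median length of 495 bases, with a range of 213 to 1347. The label was checked against the transcript sequences of GENCODE M21 (GRCm38) by aligning each member to the protein-coding transcripts of the gene it is named for. It held for 67 members, with a median identity of 99% and a range of 87.1% to 100%. Among them, Rpl13-ps1 aligned to Rpl13 in the reverse orientation.

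The names of 2 members did not match their sequence, so these members are kept in the counts below and left out of every comparison with a parent. Rps7-ps2 aligned over its whole length to Odc1, the gene of ornithine decarboxylase in polyamine synthesis, at 89.7% identity with 45 mismatches and 96 gap bases. Rpl18-ps1 aligned to Rpl18 over 7.81% of its length. The stretches below show the match of Rps7-ps2, with the base that differs in capitals. They come from the Rps7-ps2 transcript at chr12:3523138-3523197 (minus strand) and the mature transcript of Odc1.
Rps7-ps2: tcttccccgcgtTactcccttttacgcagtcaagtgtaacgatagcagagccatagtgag
Odc1: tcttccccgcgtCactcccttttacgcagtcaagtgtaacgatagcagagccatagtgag

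How far a member's reads can be told from those of other genes was described by cutting its transcript into every window of 50 bases and looking for each window in the annotated transcripts of all other genes, on either strand. All windows were shared for 13 members, 50% or more but not all for 37, and under 50% for 19. For 9 members, the whole transcript was identical to a stretch of the parent's, so that a read from within it cannot be told from one of the parent and its level depends on how the counting placed such reads. Rpl38-ps2 (ENSMUSG00000080921, chr6:140746960-140747172, minus strand) is the shortest of these. It is printed whole, with the start codon and the stop codon in capitals, because all of its 213 bases are found in Rpl38 and because it had the lowest p of the members.
Rpl38-ps2: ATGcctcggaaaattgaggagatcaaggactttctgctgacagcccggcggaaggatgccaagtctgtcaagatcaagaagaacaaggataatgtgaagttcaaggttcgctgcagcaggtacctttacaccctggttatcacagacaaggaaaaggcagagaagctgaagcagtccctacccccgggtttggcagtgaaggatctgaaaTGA

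At the other end of the range, Rpl31-ps6 shared 0.304% of its windows, with 27 mismatches to Rpl31. Reading each member in its parent's frame gave a start codon at the parent's position in 61 members. In 44 of these the frame ran for as many codons as the parent's, and in 17 it ended earlier, at a stop codon or at the end of the annotated transcript. From that start codon the frame of Rps15a-ps6 ended after 2 codons, although its longest open frame from any ATG held 127 codons beside 130 in Rps15a, and that of Rpl31-ps6 after 21 of the 125 in Rpl31.

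The members took a small and uneven part of the libraries. Together their mean count was 11852, or 0.0353% of the counts on genes, and Rpl3-ps1 alone held 38.5% of it. With Rps2-ps10, the share was 53.4%. At the other end, 54 members had a mean count below 100. For the 67 members with a matching parent, the member's count was a median of 0.228% of the parent's, from 0.0205% to 21.0%.

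**Figure D1:**
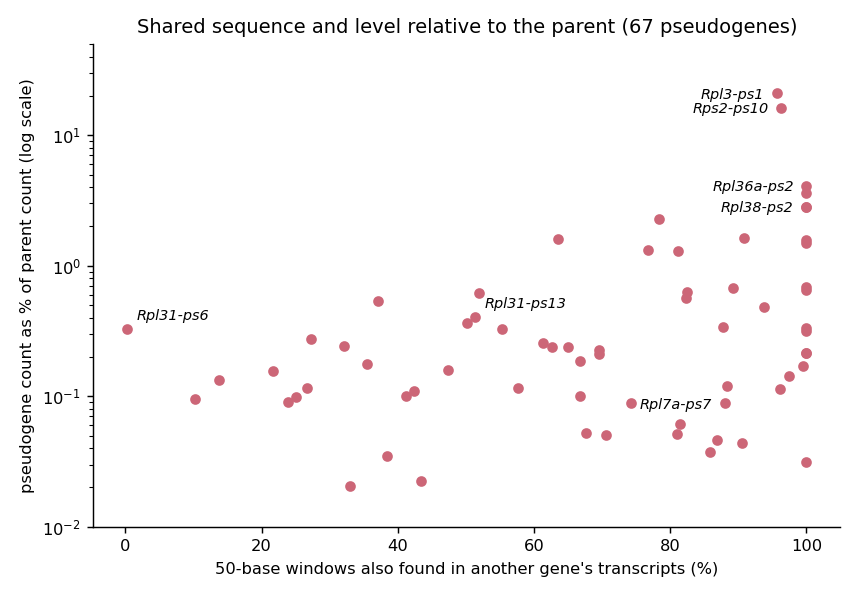
Count of each pseudogene as a percent of its parent gene's count (y, log scale), against the percent of its 50-base windows that occur in transcripts of other genes (x), for the 67 pseudogenes that match their parent. Rpl3-ps1 at 21.0% and Rps2-ps10 at 16.3% stand above all others, and they share 95.7% and 96.3% of their windows.

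Rpl3-ps1 (ENSMUSG00000084349, chrX:13202571-13203780, plus strand) is a copy of Rpl3, whose protein lies near the peptidyl transferase centre of the large subunit. The copy has 2 mismatches to the Rpl3 transcript over 1210 bases and keeps the parent's frame of 403 codons, where its annotated transcript ends without a stop codon. One of these mismatches is shown in capitals in the 60 bases from chrX:13202602-13202661, where the copy and Rpl3 differ in the reference.
Rpl3-ps1: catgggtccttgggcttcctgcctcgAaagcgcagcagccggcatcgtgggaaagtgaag
Rpl3: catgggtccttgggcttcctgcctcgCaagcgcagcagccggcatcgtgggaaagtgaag
Its level was 125, 141, 152 and 147 CPM in the vehicle mice and 141, 133, 124 and 126 CPM in the tRA mice. The groups overlapped, and vehicle mouse 1 was as low as the lowest tRA mice. The log2 fold change of tRA over vehicle was -0.11 (standard error 0.0748, FDR 0.796 in edgeR's quasi-likelihood test).

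Rps2-ps10 (ENSMUSG00000091957, chr18:61259008-61259972, minus strand), in an intron of Pde6a and on the opposite strand, is a copy of Rps2, whose protein lies at the mRNA entry site of the small subunit. Its level was 58.4, 55.1, 66.2 and 55.7 CPM with vehicle and 54.8, 50, 41.6 and 39.3 CPM with tRA. Every tRA mouse was below every vehicle mouse, although tRA mouse 1 was close to the lowest of them. Other genes held 96.3% of its windows, 71 of them at least 1, so this level is uncertain. The log2 fold change was -0.34 (standard error 0.110, unadjusted p = 0.0103, FDR 0.757, edgeR). Rps2 itself, at 352 ± 25 CPM with vehicle and 296 ± 53.8 with tRA (SD, n = 4), had a log2 fold change of -0.25 and overlapped between the groups.

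Of the 6 next most abundant members, Rpl19-ps11 was lower in every tRA mouse, and the other 5 overlapped between the groups. Rps24-ps3 (ENSMUSG00000081049, chrX:79195047-79195448, plus strand), with 4 mismatches to the small subunit gene Rps24, was at 21.6, 18.9, 30.2 and 20.9 CPM with vehicle and 26, 18.5, 14.5 and 19.9 CPM with tRA. The groups overlapped over most of their range. Its log2 fold change was -0.22 with a standard error of 0.184 (FDR 0.837, edgeR), and it ranged from -0.38 to -0.06 when each mouse was left out in turn. Rpsa-ps10 was at 11.8 ± 2.16 CPM with vehicle and 10.9 ± 1.57 with tRA (SD, n = 4), a log2 fold change of -0.11. Rpl14-ps1 was at 10.3 ± 1.56 and 9.30 ± 0.779 CPM (SD, n = 4), a log2 fold change of -0.15 beside -0.14 for Rpl14, and these groups overlapped too. Rpl10a-ps1, identical to Rpl10a of the large subunit over 654 bases, was at 10.5 ± 0.797 and 8.58 ± 1.47 CPM (SD, n = 4), a log2 fold change of -0.29 (unadjusted p = 0.0596, FDR 0.772, edgeR).

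Across all genes, 0 of 16484 passed an FDR (Benjamini-Hochberg) under 0.1 in edgeR's quasi-likelihood test, or 0.0%. All 69 members were tested, and 0 of them passed. The lowest FDR of a member was 0.757. At an unadjusted p under 0.05, 10 members were lower in tRA and 1 was higher, beside 3.55% lower and 2.94% higher among all genes tested. Short genes leaned lower too. Among 600 other processed pseudogenes tested, 35 were lower and 7 higher at that p. Among 1883 tested genes of up to 1000 exonic bases, 129 were lower and 42 higher. The filter on low counts needs 4 mice above a floor of 0.304 CPM. In 8 members, Rpl7a-ps7, Rpl17-ps4 and Rpl35a-ps3 among them, all 4 vehicle mice but not all 4 tRA mice were above it, so that the group with the higher level was enough to pass them. Without these 8, 7 of 61 members were lower at that p. DESeq2 called 27 genes, or 0.198% of the 13625 to which it gave an adjusted p, and Rpl38-ps2 was the one member among them (FDR 0.0233).

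Most of these differences were small and negative. A negative log2 fold change was found for 55 of the 69 members, beside 49.7% of all genes tested, and a positive one for 14. The negative share was 55.2% among the 600 other processed pseudogenes and 56.4% among the 1883 genes of up to 1000 exonic bases. The median over members was -0.33, with quartiles at -0.48 and -0.07 and a range of -1.40 to 0.79, while the median over all genes tested was 0.0014. The members' 55 negative values were the same in number with RLE normalization and with library size alone, which moved the median of all genes to 0.03. Members whose 4 tRA mice were all below the 4 vehicle mice numbered 7, or 4 without those 8 (1.63% of all genes tested did so), and 1 was above in all 4 (1.91%). Of the 600 other processed pseudogenes, 21 were below in this way and 8 above, and of the 1883 short genes 55 and 25. Without the 8, 47 of 61 members had a negative log2 fold change, with a median of -0.29.

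**Figure D2:**
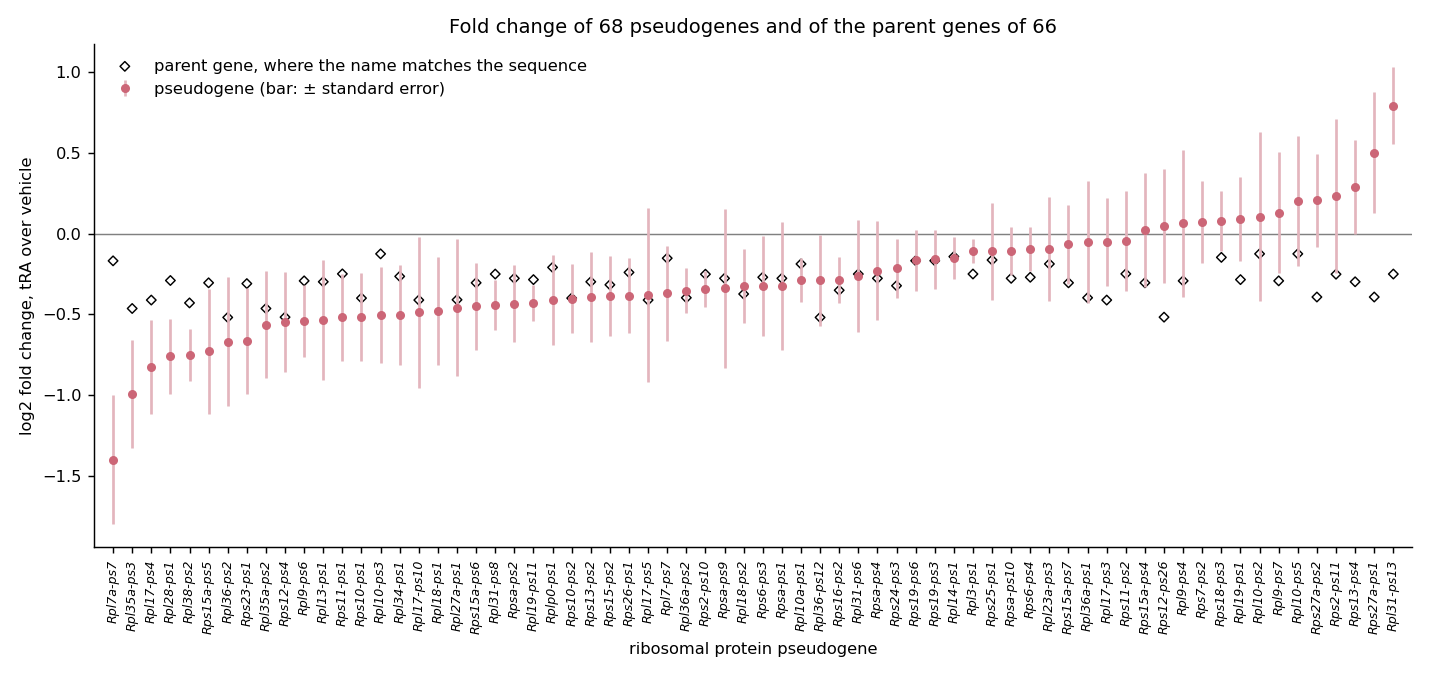
Log2 fold change (y, tRA over vehicle) of 68 of the 69 pseudogenes in order of size (x), with its standard error as a bar, and of the parent gene of the 66 whose name matches their sequence (open diamonds). 54 of the 68 lie below 0, and every one of the parent genes does.

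Of the 7 members without overlap, Rpl38-ps2 had the lowest p. Rpl38 is one of the smallest proteins of the large subunit. Levels of the copy were 5.17, 4.89, 4.91 and 5.36 CPM with vehicle and 3.54, 2.65, 2.39 and 3.48 CPM with tRA, and the gap between the groups was wider than the spread within the vehicle mice. The log2 fold change was -0.75 (standard error 0.162, unadjusted p = 0.000726, FDR 0.757, edgeR). Rpl38 was at 179, 141, 192 and 146 CPM with vehicle and 164, 117, 89.2 and 119 CPM with tRA, and its groups overlapped, with a log2 fold change of -0.43. The log2 ratio of the copy's count to that of Rpl38 was -5.0 with vehicle and -5.32 with tRA, a difference of -0.32 with overlap between the groups (two-sided exact permutation p = 0.143).

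Rpl28-ps1 (ENSMUSG00000058603, chr1:128038569-128038982, plus strand) lies in an intron of Zranb3 on the opposite strand and is identical to Rpl28 over its 414 bases. Its level was 2.87, 2.43, 2.89 and 2.62 CPM with vehicle and 1.74, 1.45, 1.00 and 2.20 CPM with tRA. The groups did not overlap, and tRA mouse 3 was the lowest. The log2 fold change was -0.76 (standard error 0.232, unadjusted p = 0.00762, FDR 0.757, edgeR), while that of Rpl28 was -0.29 and that of Zranb3 was 0.08.

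The largest fold change, in a member that the vehicle mice alone took past the filter on low counts, was that of Rpl7a-ps7 (ENSMUSG00000106258, chr3:129461972-129462747, plus strand), a copy of Rpl7a, a protein of the large subunit. It lacks 25 bases of the parent's coding sequence, and its frame ends after 147 codons where Rpl7a has 266. The stretch around the gap is shown from chr3:129462292-129462346, with the missing bases in capitals in Rpl7a, and the base that differs in capitals in both.
Rpl7a-ps7: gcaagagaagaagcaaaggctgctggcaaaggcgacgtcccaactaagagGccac
Rpl7a: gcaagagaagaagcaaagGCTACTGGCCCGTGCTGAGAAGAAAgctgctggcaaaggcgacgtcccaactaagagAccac
The counts behind it were small, at 35, 27, 23 and 28 reads in the vehicle mice and 12, 5, 6 and 19 reads in the tRA mice. That is 0.839 ± 0.124 CPM with vehicle and 0.317 ± 0.201 with tRA (SD, n = 4), without overlap. The log2 fold change was -1.40 (standard error 0.400, unadjusted p = 0.00509, FDR 0.757, edgeR), and it ranged from -1.86 to -1.18 when each mouse was left out in turn. Rpl7a had a log2 fold change of -0.17, and the ratio of the copy to it differed by -1.38 on the log2 scale (two-sided exact permutation p = 0.0571). Of its windows, 88.0% were found in at least 1 other gene and 114 other genes held at least 1 of them, so its level is uncertain, as reads of other copies may be counted in it.

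The other members without overlap were Rpl19-ps11, Rpl17-ps4 and Rpl35a-ps3. Rpl19-ps11, with 1 mismatch to Rpl19, was at 13, 12.1, 14.1 and 12.2 CPM with vehicle and 10.9, 9.07, 8.30 and 9.78 CPM with tRA. All 4 tRA mice were lower, with a log2 fold change of -0.43 (standard error 0.112, unadjusted p = 0.00271, FDR 0.757, edgeR). Rpl17-ps4 was at 0.668 ± 0.0790 CPM with vehicle and 0.377 ± 0.103 with tRA, and Rpl35a-ps3 at 0.451 ± 0.0550 and 0.226 ± 0.0780 (SD, n = 4). Their log2 fold changes were -0.83 and -0.99, and the reads behind them were few, between 9 and 26 in a mouse for Rpl17-ps4 and between 5 and 18 for Rpl35a-ps3.

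**Figure D3:**
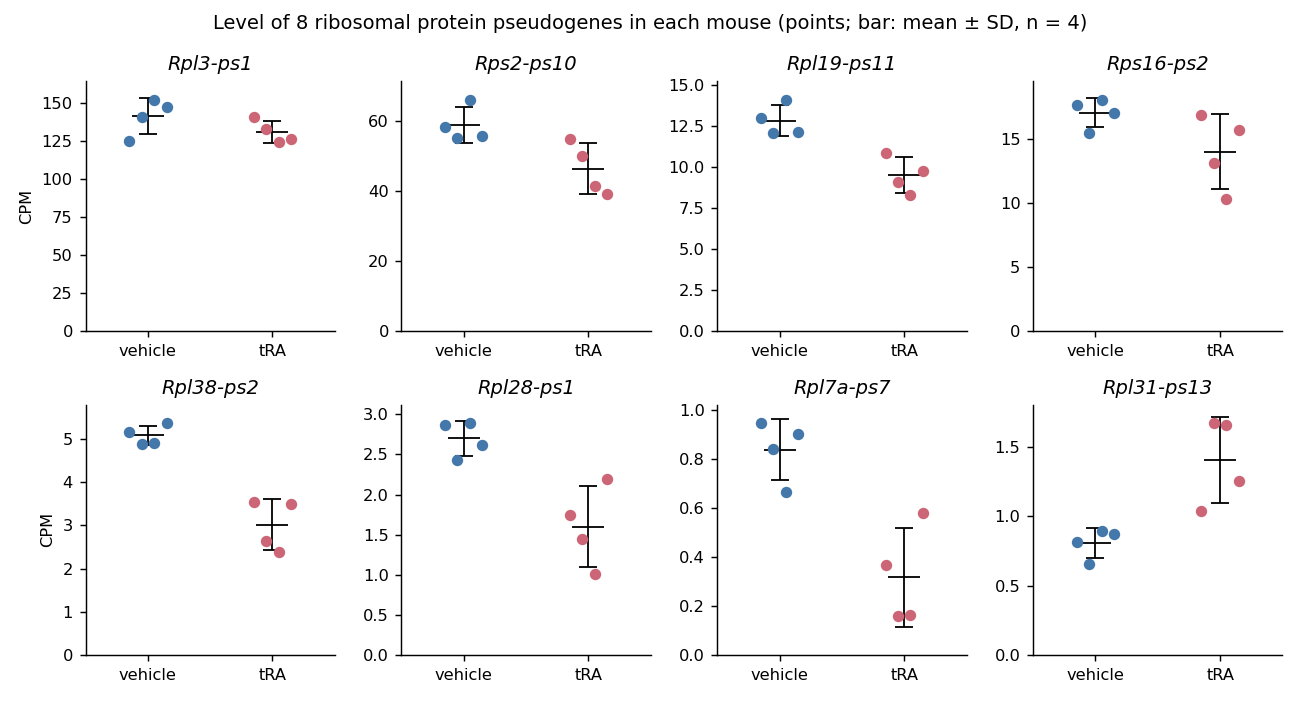
CPM (y, from 0) of 8 pseudogenes in each of the 4 vehicle mice (blue) and 4 tRA mice (red), with the mean and SD as a cross and bars. The tRA mice lie below the vehicle mice without overlap for Rps2-ps10, Rpl19-ps11, Rpl38-ps2, Rpl28-ps1 and Rpl7a-ps7, and above them for Rpl31-ps13. For Rpl3-ps1 and Rps16-ps2 the groups overlap.

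Rpl31-ps13 (ENSMUSG00000051723, chr13:100415565-100415942, plus strand) was the one member that was higher in all 4 tRA mice. It lies in an intron of Naip1, a sensor of bacterial proteins, on the opposite strand. The copy has 7 mismatches to Rpl31 over 378 bases and shared 51.4% of its windows. Its bases from chr13:100415566-100415685 hold 5 of these mismatches, shown in capitals beside Rpl31, and a read that covers one of them can be told from Rpl31 in the reference.
Rpl31-ps13: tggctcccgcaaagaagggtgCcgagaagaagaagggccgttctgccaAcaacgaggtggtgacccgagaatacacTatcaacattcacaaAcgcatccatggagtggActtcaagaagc
Rpl31: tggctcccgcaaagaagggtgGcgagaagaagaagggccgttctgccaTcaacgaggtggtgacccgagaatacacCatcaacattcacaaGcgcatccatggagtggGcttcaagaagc
Rpl31-ps13 was at 0.812, 0.654, 0.896 and 0.872 CPM with vehicle and 1.04, 1.67, 1.65 and 1.25 CPM with tRA, or between 21 and 31 reads and between 34 and 61 reads. The log2 fold change was 0.79 (standard error 0.240, unadjusted p = 0.00724, FDR 0.757, edgeR). Rpl31 was lower with tRA, at 297 ± 23.3 CPM with vehicle and 249 ± 25.6 with tRA (SD, n = 4), a log2 fold change of -0.25. The log2 ratio of the copy to Rpl31 was higher by 1.02, and the groups did not overlap (two-sided exact permutation p = 0.0286, the smallest that 4 against 4 mice can give, unadjusted over 67 ratios). Naip1, at a mean of 20.2 counts, had a log2 fold change of 0.13 (unadjusted p = 0.732, edgeR), and the kit used does not mark strand, so reads of its intron and of the copy cannot be told apart.

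The other members named for Rpl31 did not share this direction. Rpl31-ps8, identical to Rpl31, was at 5.14, 5.07, 4.54 and 5.23 CPM with vehicle and 3.63, 3.34, 3.09 and 4.64 CPM with tRA, and only tRA mouse 4 reached the lowest vehicle mouse (log2 fold change -0.44, unadjusted p = 0.0163, FDR 0.757, edgeR). Rpl31-ps6, the most diverged, was at 0.965 ± 0.147 and 0.807 ± 0.353 CPM (SD, n = 4), a log2 fold change of -0.26 with a standard error of 0.346.

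Within the larger families, all 5 copies of Rpsa, the laminin receptor and small subunit protein, had negative log2 fold changes, from -0.43 to -0.11. The 4 copies of Rpl17 had values from -0.83 to -0.05 and the 4 of Rps15a from -0.73 to 0.02. The 3 copies of Rpl9 had values from -0.54 to 0.13. The lowest was that of the protein-coding Rpl9-ps6, at 6.01 ± 1.44 CPM with vehicle and 4.14 ± 1.15 with tRA (SD, n = 4). Its log2 fold change was -0.54 (unadjusted p = 0.0349, FDR 0.757, edgeR). The 14 members with a positive log2 fold change were mostly near 0, and the standard error exceeded the value in 12 of them, beside 16 of the 55 with a negative one. Rps13-ps4, with 3 mismatches to Rps13, was at 1.03, 1.15, 0.953 and 0.808 CPM with vehicle and 0.733, 1.01, 1.82 and 1.25 CPM with tRA. Here tRA mouse 3 was the highest and tRA mouse 1 the lowest of all 8, and the log2 fold change was 0.29 (standard error 0.291, FDR 0.859, edgeR). It was 0.016 without tRA mouse 3 and 0.47 without tRA mouse 1. Both copies of Rps27a, which encodes ubiquitin fused to a small subunit protein, had positive values of 0.21 and 0.50, while Rps27a had -0.39. Rps27a-ps1, at 0.487, 0.373, 0.520 and 0.872 CPM with vehicle and 0.977, 1.17, 0.624 and 0.428 CPM with tRA, overlapped between the groups.

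The members were then set beside their parents and the genes of the ribosome. All 39 parent genes of the 67 matching members had a negative log2 fold change, with a median of -0.29. At an unadjusted p under 0.05, 23 of them were lower, beside 3.55% of all genes tested. Of 79 ribosomal protein genes, 79 were negative, with a median of -0.28 and a range of -0.57 to -0.03. Both counts were the same with RLE normalization, library size alone and DESeq2. By FDR, 0 of the 79 passed in edgeR. An unadjusted p under 0.05 was found for 39, all lower, beside 3.55% lower among all genes tested. DESeq2 called 1, Rpl36, at 234 ± 18 CPM with vehicle and 163 ± 28.2 with tRA (SD, n = 4, FDR 0.0469). Pseudogenes of other families whose symbol ends in ps and a number were split, as 45 of 89 tested were negative, with a median of -0.02. Among the 600 other processed pseudogenes tested the median was -0.06, and among the 1883 tested genes of up to 1000 exonic bases it was -0.06.

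**Figure D4:**
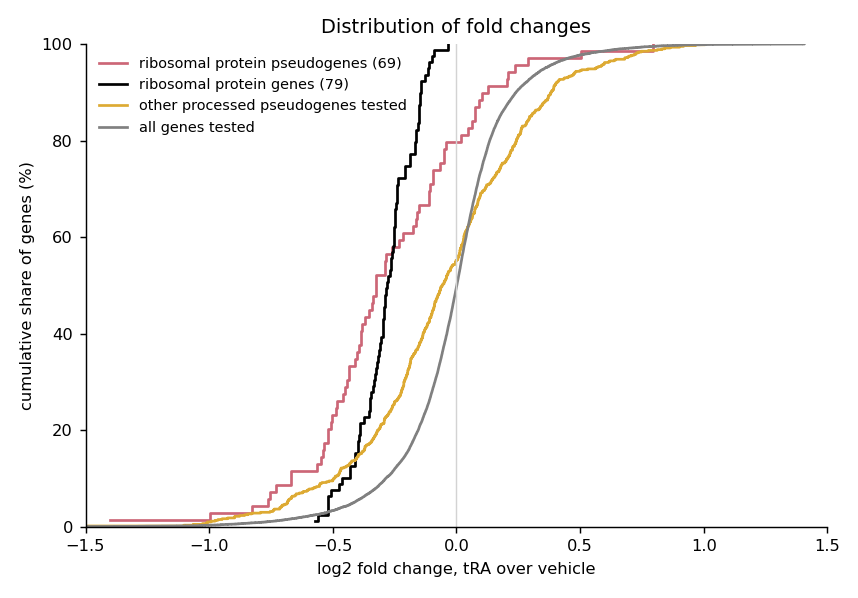
Cumulative share of genes (y, percent) by log2 fold change (x, tRA over vehicle) for the 69 pseudogenes, the 79 ribosomal protein genes, other processed pseudogenes and all genes tested. The curve of the pseudogenes has its median at -0.33, near that of the ribosomal protein genes at -0.28, with a wider spread, while those of the other sets have medians between -0.06 and 0.0014.

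To follow the members from mouse to mouse, each gene's log2 level was centred on its mean over the 8 mice, and the median over genes was taken in each mouse. For the 67 members with a matching parent it was 0.16, 0.0053, 0.34 and 0.15 in the vehicle mice and 0.14, -0.18, -0.46 and 0.04 in the tRA mice. For their 39 parent genes it was 0.19, 0.0029, 0.28 and 0.09 with vehicle and 0.17, -0.13, -0.41 and -0.22 with tRA. In both sets vehicle mouse 3 was the highest and tRA mouse 3 the lowest, tRA mouse 1 was at the level of the vehicle mice, and the groups overlapped. Genes of a set thus shared differences between mice, and counts of them are not counts of independent results. The summed level of all 69 members overlapped as well, at 364, 354, 422 and 382 CPM with vehicle and 371, 325, 286 and 322 CPM with tRA.

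The ratio of a member to its parent in the same mouse does not depend on library size. Of the 67 members, 32 had a lower and 35 a higher mean log2 ratio in tRA, and the median difference was 0.0015. No member had a lower ratio without overlap between the groups, and 2 (2.99%) had a higher one, Rpl31-ps13 and Rps6-ps4, a count from which nothing is read. Rps6-ps4, identical to Rps6, a phosphorylated protein of the small subunit, was at 7.28 ± 0.536 CPM with vehicle and 6.81 ± 1.04 with tRA (SD, n = 4), and its log2 ratio to Rps6 was higher by 0.18 (two-sided exact permutation p = 0.0286, again the smallest possible and unadjusted over the 67).

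By shared sequence, all 13 members with every window shared had a negative log2 fold change, with a median of -0.44, and 5 of them had an unadjusted p under 0.05. Without Rpl35a-ps2 and Rpl35a-ps3, which the vehicle mice alone took past the filter, the median was -0.39, and 4 of 11 had such a p. The class includes Rps16-ps2, at 17.0 ± 1.14 CPM with vehicle and 14 ± 2.92 with tRA (SD, n = 4), and Rpl36a-ps2, at 5.93 ± 0.481 and 4.64 ± 0.689 (log2 fold change -0.35, unadjusted p = 0.0307, edgeR). The 2 copies of Rpl36, Rpl36-ps2 and Rpl36-ps12, shared 62.6% and 51.9% of their windows and had log2 fold changes of -0.67 and -0.29, beside -0.52 for Rpl36. Among the 37 with 50% or more of the windows shared, 29 were negative with a median of -0.22, and among the 19 with under 50% shared, 13 were negative with a median of -0.26. An unadjusted p under 0.05 was found for 6 of the 37, 5 of them lower, and for 0 of the 19, beside 3.55% lower and 2.94% higher among all genes tested, and with so few members nothing is read from the 0. In the per-mouse medians, the members with every window shared were higher in all 4 vehicle mice (0.14 to 0.38) than in any tRA mouse (-0.58 to 0.06), while the other classes overlapped. Without Rpl35a-ps2 and Rpl35a-ps3 the vehicle mice were at 0.14 to 0.34 and the tRA mice at -0.57 to 0.06. The difference between these classes was not tested. The median ratio to the parent differed between the groups by -0.17 on the log2 scale in the first class (-0.10 without these copies of Rpl35a), 0.05 in the second and 0.02 in the third.

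**Figure D5:**
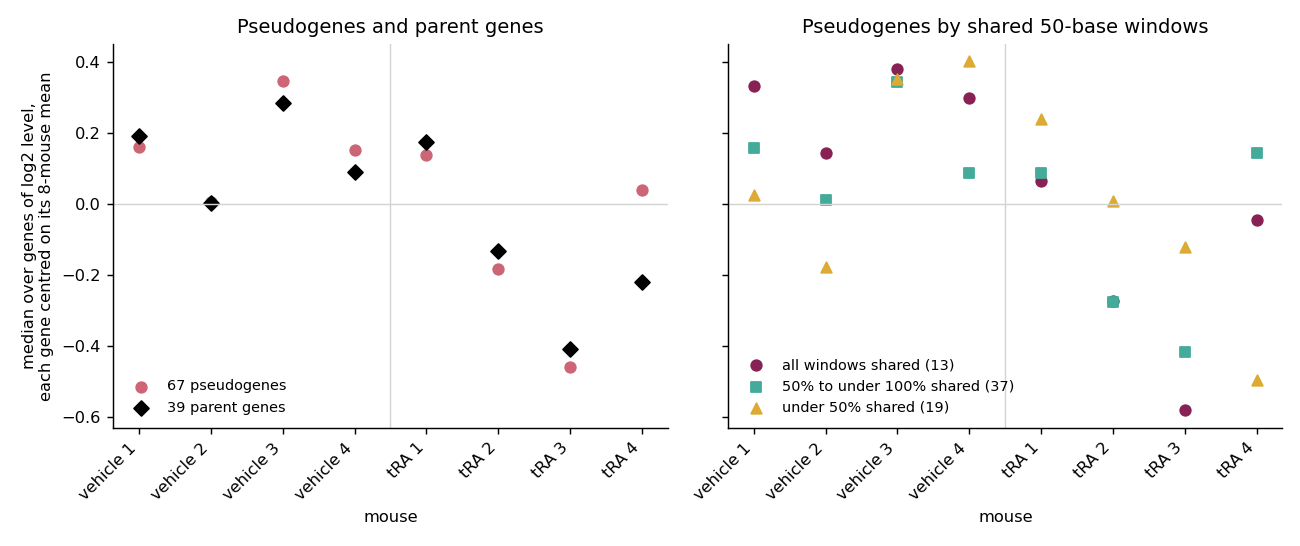
Median over genes of the log2 level, each gene centred on its mean over the 8 mice (y), in each mouse (x). On the left, the 67 pseudogenes that match their parent and their 39 parent genes are both highest in vehicle mouse 3 and lowest in tRA mouse 3. On the right, the groups do not overlap for the 13 pseudogenes with every window shared, by a narrow gap (lowest vehicle mouse 0.14, highest tRA mouse 0.06). For the classes with fewer shared windows they overlap. The classes were chosen after seeing the data, and the difference between them was not tested.

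In these total splenocytes, fewer cells of a type and less RNA per cell cannot be told apart. The levels of marker lists were summed in each mouse, and edgeR called 0 of their genes at an FDR under 0.1. All 8 neutrophil precursor genes had a negative log2 fold change (7 at an unadjusted p under 0.05, and 4 called by DESeq2), with a summed level of 552 to 737 CPM with vehicle and 251 to 491 with tRA, without overlap. All 7 immediate early genes, which respond to handling of the cells, had negative values as well (5 at that p, and 2 called by DESeq2), with sums that overlapped, at 12021 to 14825 CPM with vehicle and 5077 to 12268 with tRA. The immediate early genes were lowest in tRA mouse 3, as the members were, and the part of either list in the members' levels was not tested. Of the plasma cell genes, 4 of 6 had negative values (3 at that p), with overlapping sums of 762 to 964 CPM and 578 to 769 CPM. The summed level of 8 erythroid genes overlapped too and spanned 524 to 2480 CPM with vehicle and 628 to 3715 CPM with tRA, highest in tRA mouse 3. That mouse was also highest for the sum of 5 cell cycle genes, which was 78.8 to 120 CPM with vehicle and 65.1 to 172 CPM with tRA. The part of these 2 lists in the members' levels was not tested.

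A gene overlaps 31 of the members in the annotation, 14 on the same strand and 4 in an exon. Of 22 pairs in which the overlapping gene was tested, the pair had log2 fold changes of the same sign in 6. Without tRA mouse 1, the median over the members was -0.43 and 22 of 68 members tested were lower at an unadjusted p under 0.05, while the share of all genes that were lower rose as well, from 3.55% to 7.68%. Without tRA mouse 3 the median was -0.19 with 7 such members, beside 2.7% of all genes.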

How the data were processed

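Splenocyte RNA of 4 tRA and 4 vehicle mice was sequenced. Libraries were made with a TruSeq v2 kit, which does not mark strand. The authors deposited raw counts per gene, without normalization. The methods of the study name ea-utils, Btrim, Bowtie2, Tophat2 and HTSeq, whereas the submitters' processing notes name STAR 2.5.2b, featureCounts 1.5.1, DESeq2 1.26.0 and GRCm38. How reads that fit several places were counted is not given in the sources used here, so the levels of near-identical copies are uncertain. A deposited table holds the authors' own DESeq2 comparison and was not used.

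GENCODE M21 holds 51633 of the 51826 identifiers and lacks 193. The tests were run with edgeR 4.0.16 under R 4.3.3 (filterByExpr with a minimum of 10 counts, TMM, quasi-likelihood test) over 16484 genes at an FDR under 0.1, and DESeq2 1.42.0 was an alternative. CPM are counts scaled to the TMM-adjusted library size. Library totals were 30919272 to 37539631 counts. Ratios to the parent use counts with 0.5 added and an exact permutation test. Transcripts were aligned locally with Biopython 1.88 (match 2, mismatch -3, gap opening -5, gap extension -2). The members and lists were chosen with earlier results of these data known. The windows of 50 bases, the classes of sharing and the removal of 2 mismatched names were chosen after seeing the data, as were the stretches of sequence shown.

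The rule for named members took the 10 with the highest mean CPM, the 5 with the lowest p in each direction, those with an FDR under 0.1 in edgeR or DESeq2, the 3 on either side of the count limit, the 5 most abundant that overlap a gene, the 5 most like their parent and those whose parent the study names (Rpl36). Rpl10-ps3, Rpl13-ps1, Rpl17-ps4, Rpl18-ps1, Rpl31-ps6, Rpl35a-ps2, Rpl35a-ps3, Rpl9-ps6, Rps15a-ps6 and Rps7-ps2 fall outside it and were named with their values known. The values of 1 member that the rule took are not reported here. The edgeR fit was tested on simulated data for the tRA and vehicle comparison over 16210 genes. It recovered 57 of 57 genes with a log2 change of 2, 52 of 68 with 1 and 27 of 65 with 0.5, and it made 16 calls among 16020 unchanged genes. Chi-square per degree of freedom between mice of the same group was 14.1 to 72.5, more than sampling noise gives.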

Additional observations from a re-analysis of the deposited data

Results flagged for a closer look

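In 46 groups of 4 mice, one for each named member and treatment, 2 held a mouse that lay far from the other 3 by Dixon's criterion, where chance gives about 1 in 20 groups, or 2.3. Rpsa-ps10 was at 13.3 CPM in tRA mouse 1, while the other tRA mice were between 9.95 and 10.4 CPM. Rps6-ps4 was at 6.47 CPM in vehicle mouse 2, while the other vehicle mice were between 7.51 and 7.59 CPM.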

How the results depend on the processing

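At an FDR under 0.1, edgeR called 0 genes, DESeq2 27, edgeR without a filter on low counts 6 and edgeR without tRA mouse 4 called 3, so leaving out each mouse gave 0 to 3. Of the members, edgeR called 0 in each of its fits and DESeq2 called 1, Rpl38-ps2, whose log2 fold change was -0.75 there with an FDR of 0.0233. The members' median log2 fold change stayed negative in each alternative, at -0.32 with RLE normalization, -0.30 with library size alone, -0.23 with a length and GC offset (chosen after seeing the data) and between -0.43 and -0.19 with each mouse left out. The number of members lower at an unadjusted p under 0.05, a count chosen after seeing the data, was 10, with a range of 7 to 22 over the fits without 1 mouse, the highest without tRA mouse 1, where 68 were tested and where 7.68% of all genes were lower at that p, beside 3.55% with all 8 mice. Without the 8 members that the vehicle mice alone took past the filter on low counts, a choice made after seeing the data, the number was 7, with a range of 5 to 18. The 5 came without tRA mouse 3 and the 18 without tRA mouse 1, where 2.7% and 7.68% of all genes were lower. Requiring at least 10 counts in every sample left 50 members, 40 of them negative and 7 lower at that p, beside 593 of 14841 genes tested. A mean count of at least 100 would leave 15 members.

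The replicate number as a block gave 0 calls among all genes and a median of -0.32 over the members. In that fit, 11 members were lower at an unadjusted p under 0.05, beside 715 of all 16484 genes tested, up from 585 without the block. Deviations from the group means of mice with the same number correlated at 0.157, -0.0229, -0.0140 and 0.259, so the numbers do not pair the mice. Of 339 alternative values for the 23 named members, 325 kept their direction and side of the FDR threshold, and 7 kept their direction in DESeq2, which gave them no adjusted p. The sign turned for Rpsa-ps10 with the length and GC offset (0.012). With that offset the log2 fold change of Rpl3-ps1 was -0.03, beside -0.11 without it. In the fits without 1 mouse, the log2 fold change of Rps27a-ps2 ranged from -8.3e-05 (without tRA mouse 1) to 0.31, that of Rpl10-ps5 from -0.052 (without tRA mouse 4, and negative also without vehicle mouse 4) to 0.38, and that of Rpl36a-ps1 from -0.28 to 0.16 (without tRA mouse 3, and positive also without tRA mouse 4). Of the 79 ribosomal protein genes, 77 to 79 were negative with each mouse left out and 77 with the length and GC offset. For the 54 members with a mean count below 100, the low depth limits what a single fold change can show.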
